A study of Mus musculus with 12 samples.

Results

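The genes of the proteasome and of its activators and assembly factors were followed in mouse hearts under pressure load, with or without exposure to diesel exhaust before birth. Members were all genes whose mouse symbol begins with Psma, Psmb, Psmc, Psmd, Psme or Psmg, pseudogenes excluded. This gave 49 of the 27179 genes in the count table, of which 5 belong to the immunoproteasome (Psmb8, Psmb9, Psmb10, Psme1 and Psme2) and 44 do not. A filter on low counts left 47 members among 13626 genes tested. The 2 members left out were Psma8, the alpha subunit of the testis proteasome, with 10 counts in all, and Psmb11, the beta subunit of the thymus proteasome, with 0 of 100592512 counts, which allows a level of up to 0.0298 CPM (read counts relative to the scaled library total). Psmc3ip, a meiotic recombination factor, and Psme3ip1, a protein that binds the activator Psme3, were found by their names only. They are not subunits but stay in the member counts.

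The mothers of the mice breathed filtered air or diesel exhaust during pregnancy, from E0.5 to E17.5 (embryonic days). At 12 weeks of age the mice had transverse aortic constriction (TAC), a tie around the aorta set against a 27 gauge needle that loads the left ventricle with pressure, or a sham operation, and hearts were taken at 15 weeks. All mice were raised in filtered air after birth. Each of the 4 groups (filtered air sham, filtered air TAC, diesel exhaust sham, diesel exhaust TAC) had 3 libraries of ribosome-depleted total RNA. The sources used here do not give strain, sex, litter or sequencing run. Hearts of 1 exposure group may share a litter, which the tests of exposure do not take into account.

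The proteasome degrades proteins tagged with ubiquitin. Its 20S core is a barrel of alpha rings, which gate entry, around beta rings, in which Psmb5, Psmb6 and Psmb7 carry the chymotrypsin-like, caspase-like and trypsin-like sites. The 19S cap binds ubiquitin chains, removes them and unfolds the substrate with a ring of ATPases. In leukocytes and in cells stimulated by interferon gamma, Psmb8, Psmb9 and Psmb10 take the places of Psmb5, Psmb6 and Psmb7, and Psme1 and Psme2 form the PA28 activator cap. That form, the immunoproteasome, makes peptides for presentation by class I molecules. In the heart, proteasome activity serves the turnover of damaged and contractile proteins, and its part in pressure overload has been studied for both forms.

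Total counts ran from 5534685 to 13265816 per library, and mitochondrially encoded RNA took 18.3% to 32.4% of them. The diesel exhaust sham replicate 2 had the lowest mitochondrial share and the highest share of counts in genes with no symbol, 8.38%. Markers of ventricular cardiomyocytes were all detected, with a summed level of 72436 to 132665 CPM per library, and all 4 genes of a hypertrophy list (Nppa, Nppb, Myh7 and Acta1) rose with TAC averaged over both exposures. Replicate 1 of each of the 4 groups stood apart from the other 8 libraries. The first component of the deviations from the group means held 34.8% of their variance over 9842 genes and gave these 4 libraries loadings of 0.28 to 0.47 against -0.28 to -0.11 in the other 8. Why they differ was not tested, and the runs, of 4 samples each, cannot be assigned to libraries. Where a count or value moved much with these libraries, it is also given with a term for them in the model or without them.

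Most members were moderately abundant. The median member had a mean level of 39.6 CPM over the 12 libraries, against 12.5 CPM for all genes tested. Per kilobase of annotated exon, the mean levels over the 12 libraries were highest for Psma7 at 87.6, the 19S ATPase Psmc3 at 78.1 and Psmb7 at 72.2 CPM per kb. The first place of Psma7 rested on the 4 libraries that stand apart, where it had 130.1 CPM per kb. In the other 8 it had 66.4, below 75.02 for Psmc3 and 71.3 for Psmb7. Among the constitutive 20S genes, the lowest such levels were those of Psma3 at 2.83 and Psma5 at 4.47 CPM per kb, although each alpha subunit takes the same number of places in the core. The sources used here do not say how reads that also match processed gene copies were treated, so levels of single subunits relative to each other are uncertain. Of the activators, Psme4, the large cap protein PA200, had 54.2 and Psme3, the nuclear activator PA28 gamma, 13.4 CPM per kb. The assembly chaperones Psmg1, Psmg2, Psmg3, Psmg4, Psmd5, Psmd9 and Psmd10 lay between 2.66 and 11.4 CPM per kb. The 3 inducible catalytic subunits were below their constitutive counterparts on the same scale. Psmb10 had 20.8 against 72.2 for Psmb7, Psmb8 had 5.17 against 24.4 for Psmb5, and Psmb9 had 3.48 against 60.2 CPM per kb for Psmb6.

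The comparison of TAC with sham asked how the proteasome genes answer to pressure load. No member passed the test. In filtered air, 0 of 47 members had an adjusted p under 0.05 in edgeR's quasi-likelihood test, where 0.829% of all genes tested were called, and 1 member had an unadjusted p under 0.05 against 11.1% of all genes. After diesel exhaust, 0 of 47 were called where 3.24% of all genes were, and 0 had an unadjusted p under 0.05 against 15.9% of all genes. Averaged over both exposures, 0 of 47 were called where 8.03% of all genes were, and 1 member, Psmb10, had an unadjusted p under 0.05 against 21.6%. DESeq2 and limma voom also called 0 members in each of these comparisons. With a term for the 4 libraries that stand apart, 3 members in filtered air had an unadjusted p under 0.05 against 13.9% of all genes, 4 after diesel exhaust against 19.2%, and 3 averaged against 25.0%. The median size of the log2 fold change in the averaged comparison was 0.12 for the members and 0.24 for all genes tested.

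**Figure D1:**
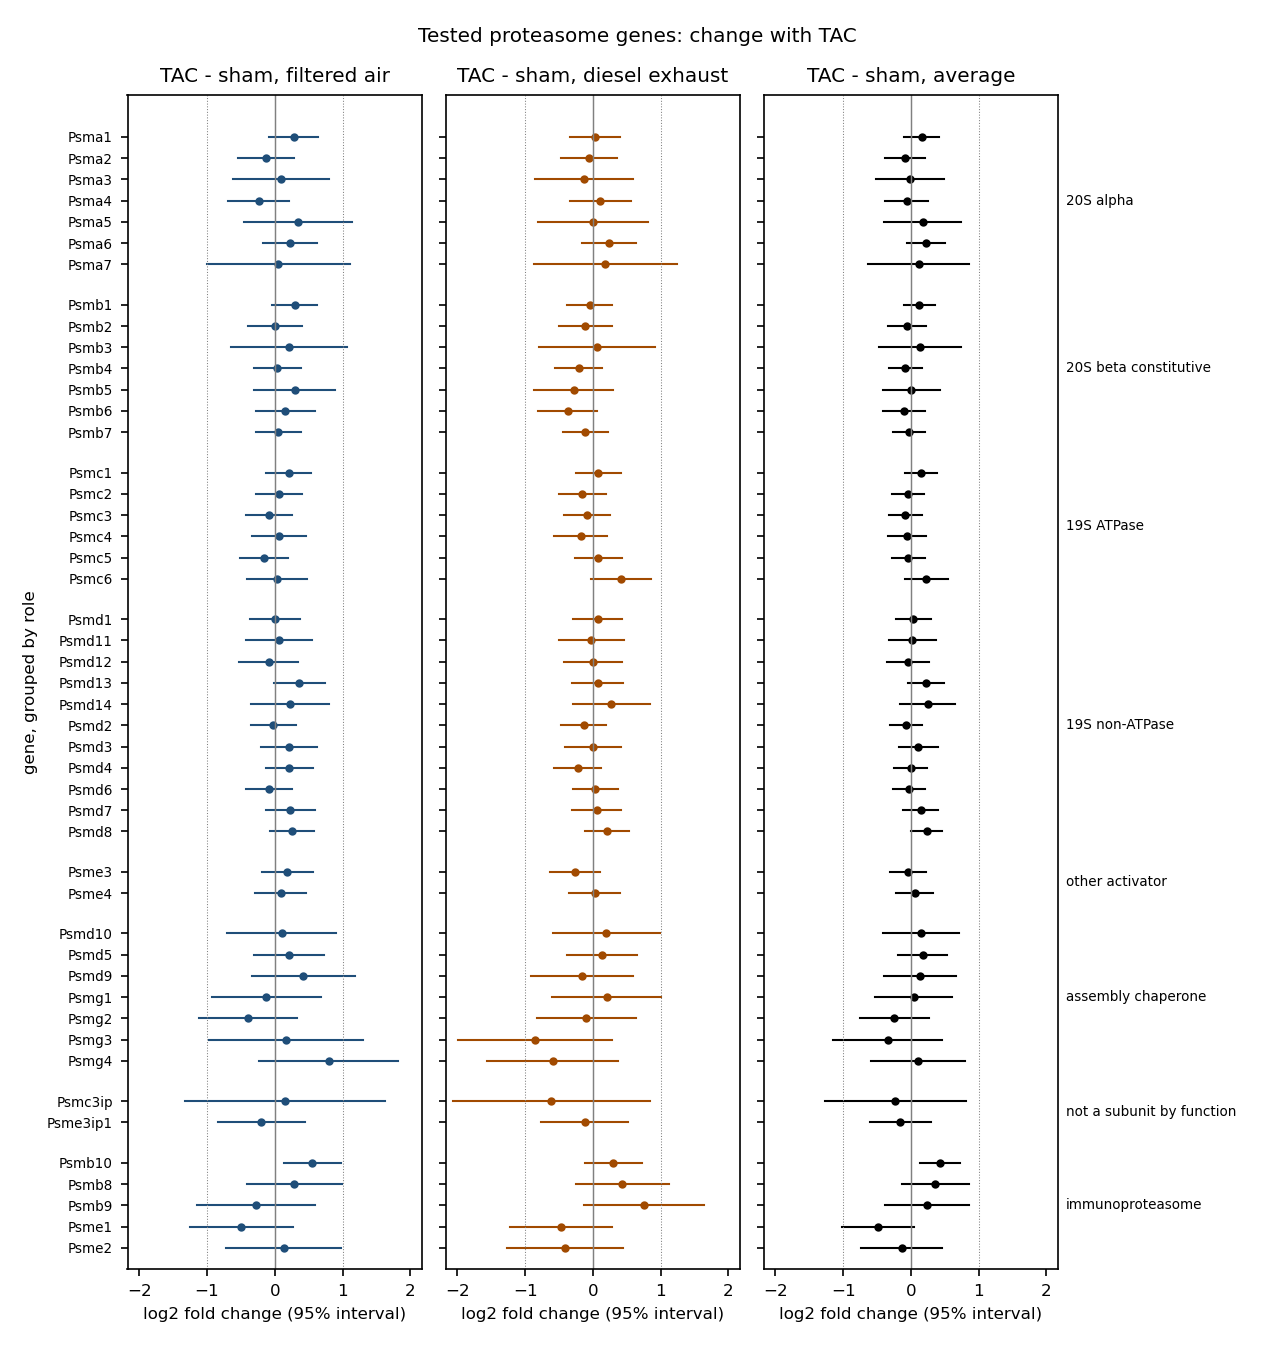
Log2 fold change of TAC against sham for each of the 47 tested members, with 95% intervals, in filtered air, after diesel exhaust and averaged over both exposures. Genes are ordered by role, and dotted lines mark a log2 change of 1 in each direction. The constitutive 20S and 19S genes sit close to 0 in the averaged panel, between -0.11 and 0.25, and Psmb10 and Psme1 lie farthest from 0 on opposite sides.

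The constitutive 20S and 19S subunits changed by less than 2-fold when averaged over both exposures. In the averaged comparison their 31 log2 fold changes ran from -0.11 for Psmb6 to 0.25 for Psmd14, the deubiquitinase of the 19S lid, with a median of 0.01 against 0.00 for all genes tested. The 95% interval of the fold change lay within 2-fold in either direction for 31 of 31 and within 1.5-fold for 27 of 31. The 4 exceptions to the narrower limit were Psma5, Psma7, Psmb3 and Psmd14. With a term for the 4 libraries that stand apart, the interval was inside 1.5-fold for 30 of 31, with Psma5 as the exception. Within 1 exposure the limits were wider, and 17 of 31 intervals in filtered air and 22 of 31 after diesel exhaust lay within 1.5-fold.

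The summed level of the 14 tested constitutive 20S genes was 621 ± 33.5 CPM (SD, n = 3) in filtered air sham and 674 ± 13.3 CPM in filtered air TAC. It was 625 ± 68.4 CPM in diesel exhaust sham and 610 ± 84.6 CPM in diesel exhaust TAC. The filtered air TAC hearts ran from 659 to 683 CPM and overlapped the filtered air sham hearts, which ran from 598 to 660 CPM. Replicate 1, which stands apart, had the highest sum in every group, 660, 683, 704 and 684 CPM in the order above. Replicates 2 and 3 had 607 and 598 CPM in filtered air sham and 681 and 659 CPM in filtered air TAC, without overlap. After diesel exhaust they had 582 and 589 CPM in sham and 627 and 517 CPM in TAC. The 17 constitutive 19S genes summed to 998 ± 23.6, 1040 ± 45.6, 1000.1 ± 69.3 and 1004 ± 47.4 CPM in the same order of groups. These sums are descriptions without a test.

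In filtered air, 34 of 47 members had a log2 fold change above 0, with a median of 0.10 against 0.00 for all genes, and after diesel exhaust 23 of 47, with a median of -0.00 against 0.00. Without TMM factors, the scaling that matches the bulk of genes between libraries, the median of all genes itself moved to 0.11 in filtered air and 0.12 after diesel exhaust, and the members' medians to 0.21 and 0.11. Relative to all genes, the members' median was about as far above 0 in filtered air, and near 0 after diesel exhaust, under both scalings. The members' direct share of the counts was 0.199% to 0.204% in filtered air sham, 0.227% to 0.230% in filtered air TAC, 0.202% to 0.224% in diesel exhaust sham and 0.223% to 0.240% in diesel exhaust TAC. The TMM factors were also lower in the filtered air sham hearts (0.909 to 0.972) than in the filtered air TAC hearts (0.980 to 1.02). The share is taken from raw counts and raw library totals, so these factors do not enter it. On the CPM scale, which includes them, all members summed to 2096 to 2184 CPM in filtered air sham. The sum was 2228 to 2350 CPM in filtered air TAC, 2013 to 2348 in diesel exhaust sham and 2016 to 2220 in diesel exhaust TAC. Neither the share nor the sum was tested.

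Among the alpha subunits, Psma6 had the smallest p in the averaged comparison. Its level was 60.2, 79.4 and 71.8 CPM in filtered air sham and 86.6, 80.5 and 79.1 in filtered air TAC, and 80.8, 46.2 and 65.6 in diesel exhaust sham and 83.4, 80.1 and 62.8 in diesel exhaust TAC. The groups overlapped in both exposures, and the diesel exhaust sham replicate 2 was the lowest of the 12. The averaged log2 fold change was 0.23 ± 0.14 (SE, adjusted p = 0.362). Psmb1, a beta subunit with no catalytic site, ran from 63.0 to 68.7 CPM in filtered air sham and from 74.9 to 86.8 in filtered air TAC, with no overlap, but from 68.9 to 84.3 and from 65.2 to 81.1 CPM after diesel exhaust. Its averaged log2 fold change was 0.12 ± 0.11 (adjusted p = 0.592).

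Psmc6, an ATPase of the 19S base, was measured at 43.0, 36.1 and 45.2 CPM in filtered air sham and 39.1, 43.9 and 44.1 in filtered air TAC, and at 37.6, 22.0 and 36.5 in diesel exhaust sham and 56.1, 36.1 and 36.0 in diesel exhaust TAC. The higher mean after diesel exhaust TAC rested on replicate 1. Its log2 fold change after diesel exhaust was 0.42 ± 0.22 (adjusted p = 0.360), and 0.17 ± 0.22 without that library. Psmd8, a lid subunit, had 63.9, 54.6 and 62.0 CPM in filtered air sham, 76.3, 74.5 and 64.3 in filtered air TAC, 72.9, 61.2 and 59.8 in diesel exhaust sham, and 75.04, 75.5 and 73.9 in diesel exhaust TAC. All TAC hearts were above all sham hearts within each exposure. The averaged log2 fold change of Psmd8 was 0.23 ± 0.11 with an unadjusted p of 0.0510 and an adjusted p of 0.234, so it did not pass the test.

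The activator Psme4 ran from 322 to 390 CPM in filtered air sham and from 350 to 393 in filtered air TAC, and from 243 to 401 in diesel exhaust sham and from 310 to 381 in diesel exhaust TAC. These ranges overlapped in both exposures, and the averaged log2 fold change was 0.05 ± 0.13 (adjusted p = 0.867). Psmg2, which pairs with Psmg1 to start the alpha ring, had 18.2, 7.49 and 14.7 CPM in filtered air sham and 10.3, 9.38 and 11.1 in filtered air TAC, and 9.30, 7.84 and 8.79 in diesel exhaust sham and 13.2, 6.02 and 4.87 in diesel exhaust TAC. The spread within groups was larger than the difference between them, with an averaged log2 fold change of -0.25 ± 0.25 (adjusted p = 0.631). Without diesel exhaust TAC replicate 1 it was -0.53 ± 0.23 (adjusted p = 0.198).

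Counting members whose groups did not overlap gave 10 of 47 for TAC and sham in filtered air, against 15.8% of all genes. The 9 that were higher in TAC were Psma1, Psmb1, Psmb10, Psmc1, Psmd4, Psmd8, Psmd9, Psmd13 and Psmg4, and the 1 that was lower was Psmc3. Psmc3 had 134, 132 and 133 CPM in sham and 128, 124 and 123 in TAC, a log2 fold change of -0.09 ± 0.16. After diesel exhaust the count was 2 of 47, with Psmd8 higher and Psmb4 lower, against 22.3% of all genes. Psmd8 was the only member without overlap in the same direction in both exposures. The share of all genes that do this was not counted, so this does not set Psmd8 apart.

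The immunoproteasome genes lie in 3 places. Psmb9 and Psmb8 are on chromosome 17 on either side of Tap1, which codes for a subunit of the pump that carries peptides into the endoplasmic reticulum. Psmb9 and Tap1 are read in opposite directions from starts 225 bases apart. Psme1 and Psme2 lie 5912 bases apart on chromosome 14, and Psmb10 is on chromosome 8. The 150 bases before the RefSeq start of 4 of them (assembly GRCm38.p6) are printed because Psmb10 and Psme1 lay farthest from 0 in the averaged comparison of TAC with sham, and Psmb8 and Psmb9 flank Tap1. They are chr17:34198045-34198194 (plus strand) for Psmb8, chr17:34187331-34187480 (minus strand) for Psmb9, chr8:105938393-105938542 (minus strand) for Psmb10 and chr14:55578344-55578493 (plus strand) for Psme1. Capitals mark the motif TTCNNNGAA in Psmb8 and, in Psmb9, a CCAAT box read on the opposite strand.
Psmb8: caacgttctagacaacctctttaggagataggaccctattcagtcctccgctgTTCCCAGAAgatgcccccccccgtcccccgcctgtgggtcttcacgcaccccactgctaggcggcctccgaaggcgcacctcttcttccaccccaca
Psmb9: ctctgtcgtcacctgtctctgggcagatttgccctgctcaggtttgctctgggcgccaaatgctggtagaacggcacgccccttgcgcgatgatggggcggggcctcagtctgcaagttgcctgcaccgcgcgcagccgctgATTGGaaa
Psmb10: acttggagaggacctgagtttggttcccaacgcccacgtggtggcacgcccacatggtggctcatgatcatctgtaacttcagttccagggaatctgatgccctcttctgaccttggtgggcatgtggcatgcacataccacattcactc
Psme1: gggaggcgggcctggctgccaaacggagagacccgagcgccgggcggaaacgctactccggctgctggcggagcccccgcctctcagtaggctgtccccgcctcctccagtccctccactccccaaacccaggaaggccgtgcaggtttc

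The 4 motifs were searched on both strands in the 250 bases before the start, in 45 promoters of 41 members and in 32851 promoters of all genes. TTCNNNGAA was found in 4.44% of the member promoters and 7.02% of all promoters, and the members were Psmb8 and Psmg1. The interferon response element, GAAA and GAAA with 2 bases between them, was found in 6.67% of the member promoters (Psmb3, Psmd4 and Psmd9) and 2.98% of all. The antioxidant response element core TGACNNNGC was in 11.1% (Psmb5, Psmb6, Psmc6, Psmd12 and Psmd9) and 10.2%, and CCAAT in 35.6% and 33.8%. These are matches of letters within these windows, not measured sites.

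Psmb10, the inducible trypsin-like subunit, was the member with the smallest p in the averaged comparison. Its level was 26.6, 20.5 and 19.1 CPM in filtered air sham and 33.8, 34.4 and 29.6 in filtered air TAC. After diesel exhaust it was 22.7, 29.0 and 21.0 CPM in sham and 24.8, 32.0 and 32.9 in TAC. The filtered air TAC hearts all lay above the sham hearts, and the diesel exhaust groups overlapped. The group means were 22.1 ± 3.99, 32.6 ± 2.62, 24.3 ± 4.22 and 29.9 ± 4.44 CPM (SD, n = 3) in filtered air sham, filtered air TAC, diesel exhaust sham and diesel exhaust TAC. The log2 fold change of TAC against sham was 0.56 ± 0.20 in filtered air (SE, adjusted p = 0.267), 0.30 ± 0.20 after diesel exhaust (adjusted p = 0.505) and 0.43 ± 0.14 averaged (adjusted p = 0.0697), a 1.34-fold difference with a 95% interval from 1.10 to 1.65. It missed the threshold. It passed in 5 of 22 alternatives and not in the other 17, which include DESeq2 and limma voom. The adjusted p was 0.0451 without filtered air sham replicate 1, 0.0351 without diesel exhaust sham replicate 2, 0.0441 with a term for the 4 libraries that stand apart, 0.0407 without them and 0.0326 without TMM factors. The alternatives with the term, without the 4 libraries and without TMM factors were chosen after the values were seen. Without TMM factors the median of all genes was itself 0.11.

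Psme1, the alpha chain of PA28, went the other way. It was measured at 30.4, 45.5 and 57.3 CPM in filtered air sham and 21.6, 37.8 and 35.1 in filtered air TAC, and at 27.5, 71.1 and 42.5 in diesel exhaust sham and 23.8, 42.1 and 35.9 in diesel exhaust TAC. The groups overlapped, and in each group replicate 1 was the lowest. The averaged log2 fold change was -0.48 ± 0.25 (adjusted p = 0.290). With a term for the 4 libraries that stand apart it was -0.47 ± 0.13 (adjusted p = 0.0209), under the threshold. That term was chosen after the values were seen, and Psme1 is a member that separates these libraries from the others. Its smaller SE is therefore no independent support. Without the 4 libraries Psme1 was not called. With that term 2 of 47 members were called, Psmb10 higher and Psme1 lower, against 11.6% of all genes. Without diesel exhaust sham replicate 2, the highest library, the log2 fold change after diesel exhaust moved from -0.47 to -0.05. Psme1 overlaps Emc9 in the annotation, and the strand setting of the counting was not stated. How reads in the shared stretch were assigned is therefore not known.

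Psme2, the beta chain of PA28, was low and did not follow Psme1. It ran from 2.64 to 4.65 CPM in filtered air sham and from 3.34 to 4.88 in filtered air TAC, and from 3.03 to 4.51 in diesel exhaust sham and from 2.17 to 3.12 in diesel exhaust TAC. Its log2 fold change was 0.13 ± 0.41 in filtered air and -0.41 ± 0.41 after diesel exhaust, and -0.14 ± 0.29 averaged (adjusted p = 0.846).

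Psmb8, the inducible chymotrypsin-like subunit, was measured at 6.66, 5.58 and 8.42 CPM in filtered air sham and 10.3, 9.76 and 5.13 in filtered air TAC, and at 9.30, 7.51 and 6.63 in diesel exhaust sham and 13.8, 11.1 and 6.65 in diesel exhaust TAC. In both TAC groups, 2 hearts lay above all sham hearts of the same exposure and replicate 3 did not. The averaged log2 fold change was 0.36 ± 0.24 (adjusted p = 0.410). Psmb9, the inducible subunit that replaces Psmb6, had 7.40, 2.64 and 6.16 CPM in filtered air sham, 6.06, 4.00 and 3.34 in filtered air TAC, 4.72, 2.50 and 2.74 in diesel exhaust sham and 7.24, 5.35 and 4.27 in diesel exhaust TAC. Its log2 fold change was -0.28 ± 0.42 in filtered air and 0.75 ± 0.43 after diesel exhaust, and the test of the difference between the 2 gave an interaction of 1.03 ± 0.60 (unadjusted p = 0.0987, adjusted p = 1.00). Over the alternatives the filtered air value ran from -0.59, without filtered air sham replicate 2, to 0.03, without filtered air sham replicate 1, and the value after diesel exhaust from 0.52 to 1.09. The sum of the 5 immunoproteasome genes was 82.4 ± 10.6, 81.0 ± 7.58, 86.1 ± 25.1 and 82.8 ± 10.9 CPM in filtered air sham, filtered air TAC, diesel exhaust sham and diesel exhaust TAC. This sum holds differences in opposite directions. Psme1 had means of 44.4, 31.5, 47.0 and 34.0 CPM, lower in TAC, while the means of Psmb10 were higher in TAC. In diesel exhaust sham the sum was 115 CPM in replicate 2, against 67.7 and 76.0 CPM in the others.

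**Figure D2:**
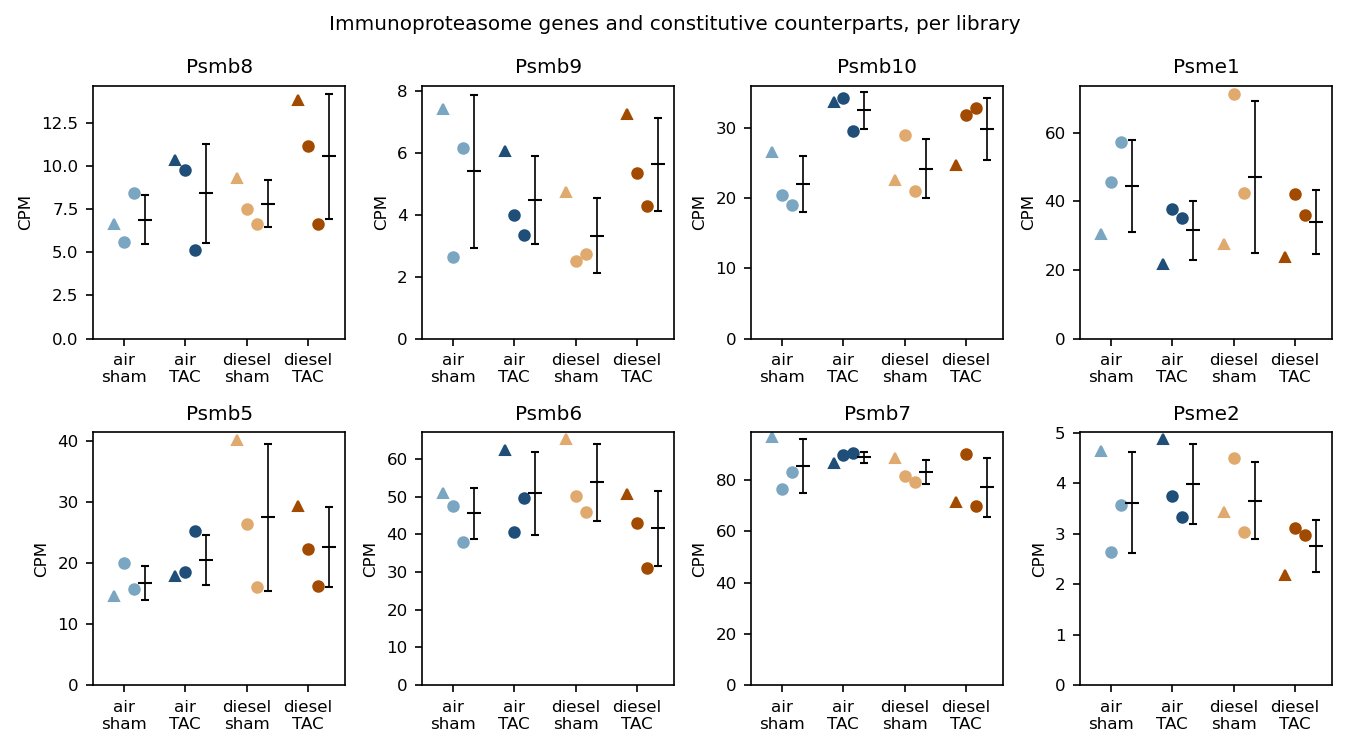
Level in CPM of the 5 immunoproteasome genes and of the constitutive subunits Psmb5, Psmb6 and Psmb7 in each of the 12 libraries. Bars give the mean and SD of each group (n = 3) and triangles mark replicate 1 of each group. Psmb10 in filtered air TAC, at 29.6 to 34.4 CPM, lies above filtered air sham, and Psme1 is lowest in replicate 1 of every group.

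The averaged changes of the constitutive counterparts were closer to 0. Psmb7 had 97.0, 76.6 and 83.1 CPM in filtered air sham and 86.6, 89.8 and 90.4 in filtered air TAC, and 88.6, 81.8 and 79.4 in diesel exhaust sham and 71.4, 90.3 and 69.7 in diesel exhaust TAC. The groups overlapped, with an averaged log2 fold change of -0.03 ± 0.11 (adjusted p = 0.927). Psmb6 ran from 38.1 to 51.2 and from 40.5 to 62.4 CPM in filtered air sham and TAC, and from 46.0 to 65.4 and from 31.1 to 50.8 in diesel exhaust sham and TAC, with -0.11 ± 0.15 (adjusted p = 0.747). Psmb5 ran from 14.7 to 19.96 and from 17.8 to 25.3 CPM in filtered air, and from 16.1 to 40.2 and from 16.3 to 29.3 after diesel exhaust, with 0.01 ± 0.20 (adjusted p = 0.991).

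The ratio of each inducible subunit to the constitutive subunit it replaces was taken within each library, which removes the library size. Per transcript length, Psmb10 had 0.243, 0.238 and 0.204 of the level of Psmb7 in filtered air sham and 0.346, 0.339 and 0.290 in filtered air TAC. After diesel exhaust the ratio was 0.227, 0.315 and 0.235 in sham and 0.307, 0.313 and 0.418 in TAC. The filtered air groups did not overlap, and after diesel exhaust sham replicate 2 lay above 2 of the TAC hearts. The log2 ratio rose with TAC by 0.51 in filtered air and 0.42 after diesel exhaust. The average was 0.46, with p = 0.015 in a two-sided exact permutation test within exposures (400 arrangements) and 0.045 adjusted over the 3 ratios. The adjusted p was 0.060 without filtered air sham replicate 3, 0.075 without diesel exhaust sham replicate 1, 0.075 without diesel exhaust sham replicate 3 and 0.060 without diesel exhaust TAC replicate 3. Without the 4 libraries that stand apart the difference was 0.46 with an exact p of 0.111, in a design whose smallest possible p is 0.0556.

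The other ratios did not pass. The log2 ratio of Psmb8 to Psmb5 differed between TAC and sham by -0.05 in filtered air and 0.60 after diesel exhaust, on average by 0.28 (exact permutation p = 0.41, adjusted p = 0.41). Without the 4 libraries that stand apart the average was 0.07 (exact permutation p = 0.889). For Psmb9 to Psmb6 the per-length ratio was 0.0859, 0.0335 and 0.0965 in filtered air sham and 0.0578, 0.0591 and 0.0403 in filtered air TAC. It was 0.0431, 0.0303 and 0.0360 in diesel exhaust sham and 0.0846, 0.0741 and 0.0819 in diesel exhaust TAC. The diesel exhaust groups did not overlap, whereas 2 of the filtered air sham hearts lay above all filtered air TAC hearts. The log2 difference was -0.34 in filtered air and 1.15 after diesel exhaust, on average 0.41 (exact permutation p = 0.26, adjusted p = 0.39), and 0.51 without the 4 libraries (exact permutation p = 0.333). The difference between the exposures was not tested for this ratio. Within 1 exposure no test was made, since 3 hearts against 3 cannot reach the threshold.

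**Figure D3:**
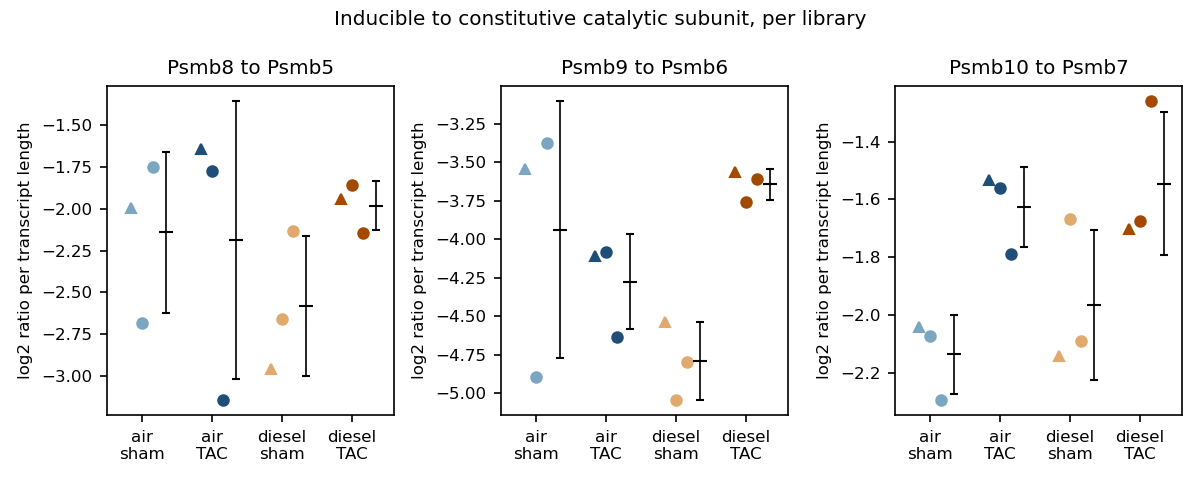
Log2 ratio per transcript length of each inducible catalytic subunit to the constitutive subunit it replaces, in each library, with the mean and SD of each group (n = 3) as bars and replicate 1 of each group as a triangle. The ratio of Psmb10 to Psmb7 was higher in TAC by 0.51 in filtered air and 0.42 after diesel exhaust, and the ratio of Psmb9 to Psmb6 differed by -0.34 and 1.15, a contrast between exposures that was not tested.

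Leukocytes are rich in immunoproteasome. Of 12 leukocyte markers 9 were tested, and 3 rose in the averaged comparison (Csf1r, Itgam and Ptprc), where 8.03% of all genes were called, with a median log2 fold change of 0.58 over the 9. Their summed level was 154 to 229 CPM in filtered air sham, 218 to 387 in filtered air TAC, 160 to 347 in diesel exhaust sham and 317 to 338 in diesel exhaust TAC, and none of the 12 was at 0 in all libraries. The ranges of sham and TAC overlapped in both exposures. Of 7 fibroblast markers 4 rose, with a median of 0.85, and of 9 cardiomyocyte markers 4 fell, with a median of -0.42. Their part in the differences of Psmb10, Psmb8 and Psme1 was not tested. In heart tissue, fewer cells of a type and less RNA per cell cannot be told apart.

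Other genes of antigen presentation and interferon response gave a mixed picture. Of 13 genes, 12 were tested and 1 rose in the averaged comparison, B2m, the light chain of class I molecules, with 0.66 ± 0.15 (adjusted p = 0.00644). The median was 0.12. Tap1, between Psmb9 and Psmb8, had 0.51 (adjusted p = 0.182) and Tap2, the other subunit of the pump, -0.37 (adjusted p = 0.338). Of 28 partners of the proteasome, which include ubiquitin genes, the ubiquitin-activating enzymes, shuttle factors, the deubiquitinases Usp14 and Uchl5, and Nfe2l1, the transcription factor that raises proteasome genes when activity is low, 26 were tested. In edgeR 0 were called in the averaged comparison, 0 had an unadjusted p under 0.05, and the median was -0.04. The largest values were 0.32 for the ubiquitin fusion gene Rps27a and -0.40 for Adrm1, a ubiquitin receptor of the 19S cap.

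The comparison of diesel exhaust with filtered air asked whether the prenatal exposure left a difference in the adult heart. It called 0 of 47 members in sham hearts, 0 of 47 in TAC hearts and 0 of 47 averaged over both surgeries in edgeR, where 0.0% of all genes were called in each. DESeq2 and limma voom also called 0 members. In edgeR an unadjusted p under 0.05 was found for 2 of 47 members in sham hearts against 3.67% of all genes. It was 0 in TAC hearts against 1.87%, and 2 averaged against 3.32%. These counts are near the shares of all genes. With a term for the 4 libraries that stand apart the counts were 2 against 5.42%, 0 against 2.66% and 3 against 4.86%. The number of members without overlap was 5 in sham hearts against 7.59% of all genes, all higher after diesel exhaust (Psmb1, Psmb4, Psmd4, Psme3 and Psmg4), and 3 in TAC hearts against 7.71%, all lower (Psmd5, Psmd7 and Psme2).

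Psmg4, a chaperone of the alpha ring, had the greatest difference in sham hearts. It was measured at 3.28, 3.67 and 4.05 CPM in filtered air sham and at 15.8, 4.34 and 7.49 in diesel exhaust sham. The groups did not overlap, and diesel exhaust sham replicate 1 was far above the other 2. The log2 fold change was 1.34 ± 0.49 (unadjusted p = 0.0126, adjusted p = 0.996), and 0.62 ± 0.50 without the 4 libraries that stand apart. Psmb5 was at 14.7, 19.96 and 15.7 CPM in filtered air sham and 40.2, 26.4 and 16.1 in diesel exhaust sham, with 0.72 ± 0.29 (unadjusted p = 0.0208, adjusted p = 0.996). Without diesel exhaust sham replicate 1 the difference of Psmb5 was 0.35 ± 0.29, and without the 4 libraries that stand apart 0.24 ± 0.28. Psmb5 overlaps the microRNA gene Mir686 in the annotation.

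All 7 tested alpha subunits had a lower mean after diesel exhaust, in sham hearts from -0.44 for Psma3 to -0.02 for Psma5 and in TAC hearts from -0.66 for Psma3 to -0.06 for Psma4 on the log2 scale. None passed the test. Averaged over both surgeries Psma3 differed by -0.55 ± 0.24 (unadjusted p = 0.0343, adjusted p = 0.999) and the median of the 7 was -0.19 against -0.00 for all genes. Without TMM factors 2 of the 7 were above 0 in sham hearts and 1 in TAC hearts, while the median of all genes moved to 0.10 and 0.09. Without the 4 libraries that stand apart 2 of the 7 were above 0 in sham hearts. The constitutive beta subunits did not share the direction in sham hearts. With TMM factors and all 12 libraries, 6 of 7 tested beta subunits were above 0 there, with a median of 0.23. In TAC hearts 1 of these beta subunits was above 0 (median -0.10), and averaged over both surgeries 3 were (median -0.02). Over all members, 23 of 47 were above 0 in sham hearts, 10 of 47 in TAC hearts and 16 of 47 averaged over both surgeries. The lower values in TAC hearts were thus not limited to the alpha subunits. Psma3 had 8.56, 9.69 and 9.56 CPM in filtered air sham and 5.11, 15.6 and 8.95 in filtered air TAC, and 5.86, 5.84 and 8.79 in diesel exhaust sham and 5.87, 7.13 and 5.76 in diesel exhaust TAC. The spread in filtered air TAC exceeded the difference from the other groups.

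The exposure by surgery interaction asked whether TAC acted differently after diesel exhaust. It called 0 of 47 members in edgeR, where 0.0% of all genes were called, and 0 in DESeq2 and limma voom. No member (0 of 47) had an unadjusted p under 0.05, against 2.39% of all genes. With a term for the 4 libraries that stand apart it was 3 (Psmd4, Psmb6 and Psmg4), against 3.47%. The 7 tested constitutive beta subunits all had an interaction below 0, from -0.58 for Psmb5 to -0.11 for Psmb2, with a median of -0.24 against -0.02 for all genes. The smallest unadjusted p among them was 0.0913, for Psmb6. Without the 4 libraries that stand apart, 1 of the 7 was above 0 and their median was -0.39. With all libraries, 11 of the 31 constitutive 20S and 19S subunits were above 0, with a median of -0.13. Of all 47 members 18 were above 0, with a median of -0.12. Values below 0 were thus not limited to the beta subunits.

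The spread between hearts of a group differed widely among members. The standard deviation of log2 CPM within groups was 0.09 for Psmd6, a lid subunit, and 0.12 for Psmd8, Psmc1 and Psmb1. It was 0.59 for Psma7, 0.60 for Psmb3 and 0.51 for Psme1. For these 3 genes the spread followed the 4 libraries that stand apart. Psma7 was at 122, 123, 113 and 117 CPM in replicate 1 of filtered air sham, filtered air TAC, diesel exhaust sham and diesel exhaust TAC, and between 46.6 and 71.3 CPM in the other 8 libraries. Psmb3 was at 10.1, 13.4, 12.0 and 19.7 CPM in the same 4 and between 23.2 and 29.4 in the other 8. In all, 6 of 47 members separated the 4 libraries from the other 8, against 3.73% of all genes. Psma7, Psmd12, Psmd1 and Psmb6 were higher in the 4, and Psmb3 and Psme1 were lower. These libraries were noticed after their values were seen, so their separation from the other 8 gets no test. With a term for the 4 libraries, the standard error of the averaged TAC change of Psma7 fell from 0.33 to 0.11 and that of Psmb3 from 0.28 to 0.15. Both genes are named for separating these libraries, so the smaller standard errors follow from that choice. The TAC changes, 0.15 and 0.20, did not pass the test (adjusted p = 0.443 and 0.448). With the same term Psmb6, Psmd1 and Psmd12 had averaged TAC differences of -0.11, 0.04 and -0.04, which did not pass either (adjusted p = 0.601, 0.852 and 0.868).

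**Figure D4:**
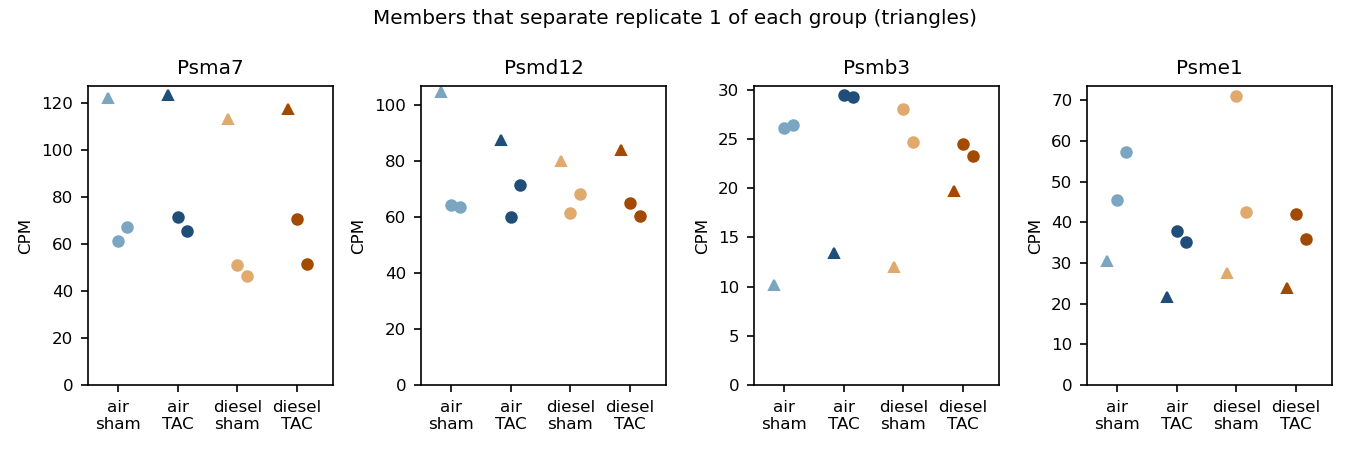
Level in CPM of 4 members in each of the 12 libraries, with triangles for replicate 1 of each group. Psma7 lies at 113 to 123 CPM and Psmd12 at 80.2 to 105 CPM in these 4 libraries, above the other 8, while Psmb3 and Psme1 lie below them in every case.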

How the data were processed

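Gene expression was measured by RNA sequencing in 12 mouse hearts. Per the submitters' processing notes, reads were trimmed with cutadapt 1.6 and aligned to mm10 with Subread 1.4.2, and genes were counted with featureCounts. The authors deposited these counts as they were, 1 row per Entrez gene number. Symbols came from RefSeq (GRCm38.p6) for 25275 genes and from GENCODE M21 for 18, and 1886 had none.

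CPM, TMM factors and tests were computed in R 4.3.3 with edgeR 4.0.16 (filterByExpr with a count minimum of 10, robust quasi-likelihood fit of all 12 libraries, 8 residual degrees of freedom), with Benjamini-Hochberg adjustment over 13626 genes and a threshold of 0.05. Alternatives used DESeq2 1.42.0, limma 3.58.1, other scalings and filters, and left out libraries. Scripts were tested on simulated data. A count of 3 was the floor, 0.217 to 0.501 CPM per library, and covers counting error only. Ratios had 0.5 added to each count. P-values measure the spread between samples, which nothing in the labels names as separate litters. Replicate numbers follow the order of the samples and pair nothing.

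Members, gene lists and tests were chosen with earlier results of these data known. Named with every library are the immunoproteasome genes, their counterparts, and per role the member with the smallest averaged p for TAC. Genes named for their exposure difference, for lacking overlap or for the 4 libraries that stand apart were chosen after their values were seen.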

Additional observations from a re-analysis of the deposited data

How the results depend on the processing

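No member was called in any alternative of 6 of the 7 comparisons. In TAC against sham averaged over both exposures, 0 members were called, and leaving out each library in turn gave 0 to 1 (Psmb10, without filtered air sham replicate 1 or diesel exhaust sham replicate 2). In alternatives chosen after seeing the data, a term for the 4 libraries that stand apart gave 2 (Psmb10 and Psme1), leaving them out gave 1 (Psmb10), and library totals without TMM factors gave 1 (Psmb10). The cause was not tested. The log2 ratio of Psmb10 to Psmb7 differed by 0.39 to 0.54 when each library was left out, and 4 of these 12 alternatives ended the call. Without the 4 libraries that stand apart it was 0.46, with too few arrangements to pass. For 14 members named with every library, 2212 alternative log2 fold changes were computed, of which 30 moved by more than 1 SE and 6 gained a call. No member was called in the edgeR test of all 12 libraries, so there was no call to lose or turn. The depth of 5534685 to 13265816 counts leaves Psmc3ip, Psmg3, Psme2 and Psmb9 with few counts and wide intervals. No paired analysis was possible because the labels give the samples no shared replicate numbers; the term for the 4 libraries was chosen from the data and pairs nothing else.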
